A study of Rattus norvegicus with 5 samples.

Results

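The 6 genes studied here, all of the plasminogen activation system, were the activators Plat and Plau, the receptor Plaur, and the serpins Serpine2, Serpinb2 and Serpinf1, and they were measured in whole rat cornea. They were chosen by symbol, with earlier results of these data known, and all 6 have a row in the gene table of 20339 genes. RNA was sequenced from the corneas of male Sprague-Dawley rats aged 6 months. Of the 5 libraries, 2 were of transgenic P1 hMR rats, in which human NR3C2, the mineralocorticoid receptor (MR) gene, is overexpressed, and 3 were of wild-type rats. Genotype is the only difference between the groups that the labels name. The promoter behind the transgene and the number of founder lines are not given in the sources used here. Values were taken as 1 rat per library, which the labels do not state outright, so p-values measure the spread between these libraries.

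Plasminogen is an inactive protease precursor of plasma that tissue-type (Plat, tPA) and urokinase-type (Plau, uPA) activators cut into plasmin, which dissolves fibrin and degrades matrix proteins. Urokinase acts mostly at the cell surface, held there by its receptor Plaur (uPAR), and serpins end the activity of both enzymes by forming a covalent complex with them. In the cornea the system is known for its part in epithelial wound closure and in turnover of the stroma. Serpine2 (protease nexin-1) inhibits both activators, plasmin and thrombin. Serpinb2 (PAI-2) inhibits urokinase. Serpinf1 (pigment epithelium-derived factor) has the serpin fold but is not a protease inhibitor, and is known as a factor that restrains vessel growth and supports neurons.

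The gene table held 20874010 to 30449675 counts per library. Human NR3C2 had 1094 and 1146 counts in the transgenic libraries and 0 in every wild-type one. The corneal keratin gene Krt12 had 45506 and 32247 counts per 1000000 (CPM) in transgenic corneas, against 37489, 45093 and 38584 CPM in wild-type corneas. Of 13304 genes tested, 1 passed the edgeR quasi-likelihood test at a Benjamini-Hochberg adjusted p of 0.05, which is 0.00752%, and it was the transgene. CPM here is scaled by the trimmed mean of M values and not by transcript length, so levels are compared between libraries and not between genes.

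Promoters of 3 members are shown: Serpine2 had the largest fold difference of the members, and Plau and Plaur had the profiles nearest to each other. Sequences are from RefSeq on build GRCr8, 5′ to 3′ on the gene's strand, from 250 bases before to 50 bases after the start of the gene. Capitals mark matches to any of the motifs searched. The Serpine2 window is chr9:88637153-88637452 on the minus strand, the Plau window chr15:3511938-3512237 on the minus strand, and the Plaur window chr1:89181113-89181412 on the plus strand. The authors' files carry no coordinates and their notes name build rn6, so these positions are those of the sequence table alone.
Serpine2: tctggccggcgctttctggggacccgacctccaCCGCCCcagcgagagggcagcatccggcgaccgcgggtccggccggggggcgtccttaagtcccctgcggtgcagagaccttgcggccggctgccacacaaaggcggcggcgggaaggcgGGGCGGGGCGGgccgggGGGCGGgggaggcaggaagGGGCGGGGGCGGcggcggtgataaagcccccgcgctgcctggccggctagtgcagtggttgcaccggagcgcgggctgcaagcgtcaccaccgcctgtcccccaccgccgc
Plau: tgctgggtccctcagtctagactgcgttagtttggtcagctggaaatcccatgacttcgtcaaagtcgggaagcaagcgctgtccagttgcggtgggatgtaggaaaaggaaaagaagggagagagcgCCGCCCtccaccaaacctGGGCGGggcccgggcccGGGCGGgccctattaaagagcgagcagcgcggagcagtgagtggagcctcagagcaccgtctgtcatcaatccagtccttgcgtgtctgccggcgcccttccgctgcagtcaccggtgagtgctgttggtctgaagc
Plaur: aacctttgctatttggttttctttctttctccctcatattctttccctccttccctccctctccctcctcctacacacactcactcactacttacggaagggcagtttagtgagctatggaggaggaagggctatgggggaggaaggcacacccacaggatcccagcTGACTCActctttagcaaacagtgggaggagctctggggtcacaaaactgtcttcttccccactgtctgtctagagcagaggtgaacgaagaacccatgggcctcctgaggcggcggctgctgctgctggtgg

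The motifs, searched on both strands, were AGAACA (the half-site that MR and the glucocorticoid receptor share), the full element (that half-site followed, after 3 bases, by its reverse complement), TGANTCA (the AP-1 element), GGGCGG (the GC-rich site of Sp1 factors, called GC box here) and the core promoter box TATAAA. Among 27457 promoters of the same length, 20.1% held the half-site, 0.00728% the full element, 7.33% the AP-1 element, 34.9% a GC box and 14.3% the core promoter box. The table holds promoters of 5 of the 6 members, all but Plat. None of the 5 held the core promoter box or the full element. Serpine2 had 6 GC boxes, 5 of them on the plus strand between 97 and 55 bases before the start, and the boxes at 97 and 92 bases overlap by 1 base. Plau had 3 GC boxes. Plaur had no GC box and 1 AP-1 element, 83 bases before the start, and Serpinb2 also had 1, 189 bases before the start. None of these 3 windows, nor that of Serpinf1, held the half-site, and Serpinb2 held 1, on the minus strand, 159 bases before the start. GC content was 77.0% for Serpine2, 61.0% for Plau and 54.0% for Plaur, with a median of 52.3% over all promoters. A match is a string of letters and not evidence of binding.

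The comparison of genotypes asked whether excess MR goes with a different level of these genes. Serpine2 was higher and Plat lower in both transgenic corneas than in any wild-type cornea. The other 3 tested members overlapped between genotypes, and Serpinb2 was too low to test. No member passed the test over all genes: 0 of 5 tested members were called by edgeR (0.00752% of all genes), 0 by DESeq2 (0.406%) and 0 by limma voom (0.00752%), and 2 of 5 (Serpine2 and Plat) had an unadjusted edgeR p under 0.05, against 6.32% of all genes tested. Without wild-type cornea 3 that count was 1 of 5, against 1441 of 13224 genes. Without transgenic cornea 2 the log2 fold change was 0.50 for Serpine2 and -0.27 for Plat. In 1 of 5 both transgenic libraries exceeded every wild-type one and in 1 of 5 both lay below, against 12% and 10.7% of all genes tested. Each of the 5 had at least 87 counts in every library, so none passed the low-count filter through 1 group alone.

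**Figure D1:**
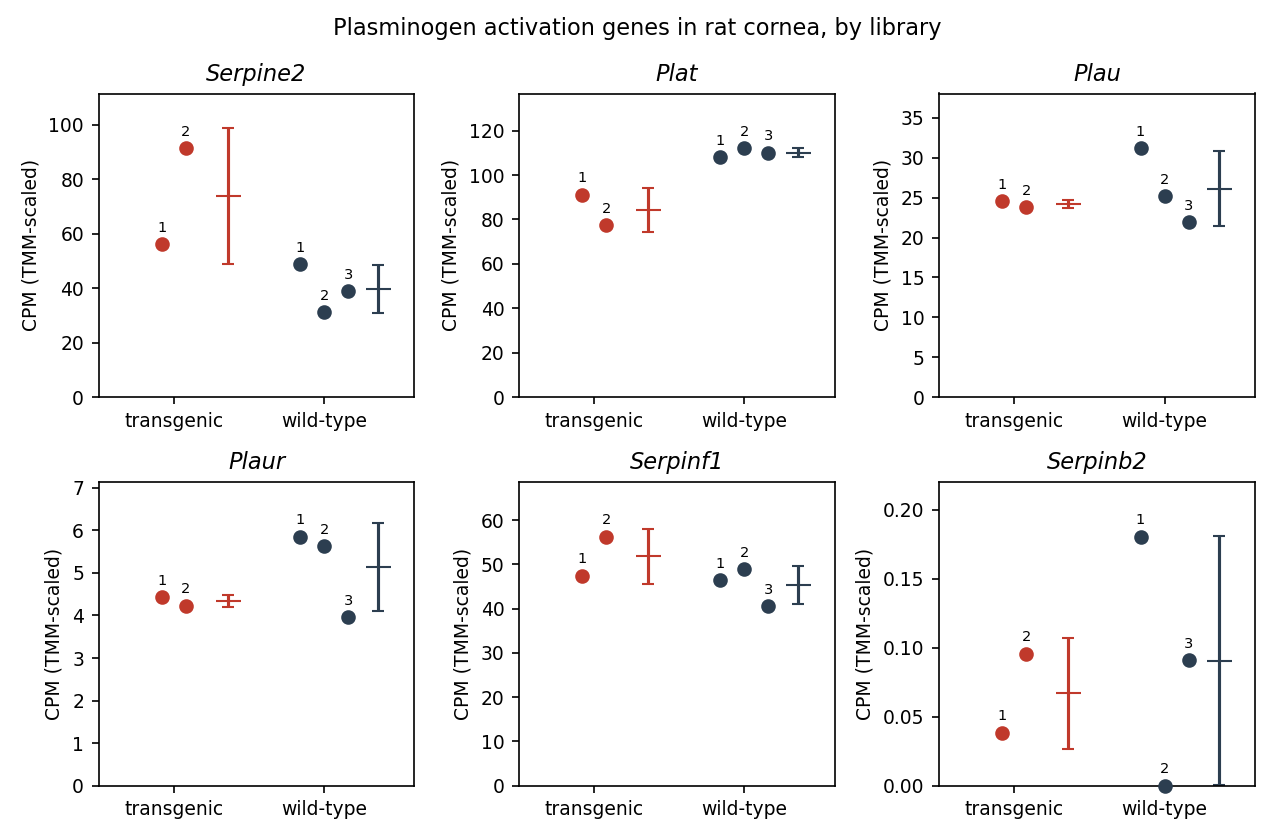
Level of each of the 6 genes in CPM (vertical axes, each from 0) in transgenic corneas 1 and 2 (left) and wild-type corneas 1 to 3 (right). Numbered points are libraries, and the bar beside them is the mean ± SD. Both transgenic corneas lie above the wild-type ones for Serpine2 and below them for Plat.

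Plat, tissue-type plasminogen activator, had 91.2 and 77.3 CPM in transgenic corneas 1 and 2, against 108, 112 and 110.0 CPM in wild-type corneas 1 to 3. The wild-type values lay close together, and both transgenic values lay below them. Means were 84.3 ± 9.85 CPM in transgenic (SD, n = 2) and 110.0 ± 2.00 CPM in wild-type corneas (SD, n = 3), a ratio of 0.766. The log2 fold change was -0.39 ± 0.10 (SE), with a 95% interval of -0.61 to -0.16, and it did not pass (edgeR adjusted p = 0.492). By unadjusted p Plat ranked 90 among the 13304 genes. It was the member with the smallest p by edgeR, although not by DESeq2, where that was Serpine2. DESeq2 gave an adjusted p of 0.111 and limma voom 0.495. In bulk tissue, fewer cells of a type and less RNA per cell cannot be told apart. Lens markers (10 genes, none at 0 in all libraries) were also lower. They summed to 14.8 and 10.2 CPM in transgenic corneas and 109, 27.5 and 22.3 CPM in wild-type corneas. Log2 fold changes were below 0 in 8 of 8 tested genes, against 6898 of 13304 genes. Of the 8, Crybb3 (8 and 7 counts in transgenic, 105, 7 and 17 in wild-type corneas) passed the low-count filter through wild-type libraries alone. Its direction was thus favoured by the filter. The part of the lens markers in the Plat values was not tested.

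Plau, urokinase, had 24.6 and 23.8 CPM in transgenic corneas and 31.2, 25.2 and 21.9 CPM in wild-type corneas. Both transgenic values lay within the wild-type range. The log2 fold change was -0.11 ± 0.15, with a 95% interval of -0.45 to 0.22 (edgeR adjusted p = 0.918). Without wild-type cornea 1, the library with the highest Plau level, the log2 fold change was 0.05, so its sign rests on that library.

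Plaur, the urokinase receptor, was the lowest of the tested members by count, with 115 and 133 counts in transgenic corneas and 162, 115 and 87 counts in wild-type corneas. These were 4.43 and 4.23 CPM in transgenic and 5.85, 5.63 and 3.96 CPM in wild-type corneas. Wild-type cornea 3 lay below both transgenic libraries, and the other wild-type corneas lay above them. The log2 fold change was -0.25 ± 0.24, with a 95% interval of -0.80 to 0.30 (edgeR adjusted p = 0.891). It was -0.14 without wild-type cornea 1 and -0.40 without wild-type cornea 3. Markers of leukocytes, cells known to carry Plaur, summed to 86.7 and 108 CPM in transgenic and 108, 102 and 97.4 CPM in wild-type corneas, and overlapped.

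Serpine2, protease nexin-1, had 56.1 and 91.3 CPM in transgenic corneas 1 and 2 and 48.8, 31.2 and 38.8 CPM in wild-type corneas 1 to 3. All wild-type values lay below both transgenic ones, but wild-type cornea 1 and transgenic cornea 1 were close, and the transgenic libraries differed from each other by more than that gap. Means were 73.7 ± 24.9 CPM in transgenic (SD, n = 2) and 39.6 ± 8.81 CPM in wild-type corneas (SD, n = 3), a ratio of 1.86. The log2 fold change of 0.89 ± 0.27, with a 95% interval of 0.20 to 1.59, did not pass (edgeR adjusted p = 0.703). DESeq2 gave an adjusted p of 0.0575 and limma voom 0.495. Without transgenic cornea 2 the log2 fold change was 0.50, and without transgenic cornea 1 it was 1.20.

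Markers of pigment cells and of retina stood in the order of Serpine2. The pigment cell and iris list (9 of 10 genes in the table, none at 0 in all libraries) summed to 94.1 and 169.9 CPM in transgenic corneas 1 and 2 and to 53.2, 13.3 and 39.7 CPM in wild-type corneas 1 to 3. All 9 genes were higher in both transgenic corneas, against 12% of all genes tested. Of the 9, Best2 (31 and 31 counts in transgenic, 4, 3 and 2 in wild-type corneas) passed the low-count filter through transgenic libraries alone. So did Oca2 (18 and 60 counts, against 9, 5 and 8). The direction of these genes was thus favoured by the filter. By the sum of the list, the libraries stood in the same order as by Serpine2. The list of retina and pigment epithelium (8 genes, none at 0 in all libraries) summed to 18.7 and 23.7 CPM in transgenic and 16.8, 3.52 and 8.33 CPM in wild-type corneas, again in the order of Serpine2. Markers of corneal endothelium (8 of 9 genes in the table) summed to 1850 and 1802 CPM in transgenic and 1741, 1676 and 1703 CPM in wild-type corneas. Those of blood vessel (7 of 9 genes in the table) summed to 90.0 and 80.1 CPM in transgenic and 76.9, 71.0 and 66.3 CPM in wild-type corneas. Both sums were higher in both transgenic libraries. Gene by gene, this held for 5 of 8 endothelial genes and 1 of 7 vessel genes, against 12% of all genes tested. Log2 fold changes were above 0 in 6 of 8 and 6 of 7, against 6406 of 13304 genes. The part of these lists in the Serpine2 values was not tested.

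Serpinb2, PAI-2, was close to absent, with 1 and 3 counts in transgenic corneas and 5, 0 and 2 counts in wild-type corneas. No library was above 5 counts, the gene did not pass the low-count filter, and no fold is given. The count of 0 in wild-type cornea 2 allows up to 0.147 CPM, counting error only.

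Serpinf1, pigment epithelium-derived factor, had 47.4 and 56.2 CPM in transgenic corneas and 46.4, 48.9 and 40.6 CPM in wild-type corneas. Transgenic cornea 2 was the highest library, and transgenic cornea 1 lay within the wild-type range. The log2 fold change was 0.20 ± 0.12, with a 95% interval of -0.07 to 0.46 (edgeR adjusted p = 0.844). It was 0.07 without transgenic cornea 2, 0.31 without transgenic cornea 1 and 0.13 without wild-type cornea 3.

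In the isoform table, the symbol Serpine2 stands on a pair of isoforms, and ENSRNOT00000077331 carried between 98.96% and 99.48% of their counts in every library. Its levels were 52.9 and 85.6 CPM in transgenic corneas and 45.9, 29.2 and 36.4 CPM in wild-type corneas, in the same order of libraries as the gene (log2 fold change 0.90 ± 0.28, edgeR adjusted p = 1.000). Over 27110 isoforms tested, edgeR called 0, or 0%, and DESeq2 209. For Plaur, ENSRNOT00000074985 took 15.6% and 34.6% of the counts on isoforms of that symbol in transgenic corneas 1 and 2, against 19.6%, 16.5% and 16.2% in wild-type corneas 1 to 3. Transgenic cornea 2 stood alone in this share, and on about 46 of its reads.

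The symbols Plat, Plau and Serpinf1 stand on 1 isoform each, and these rows did not hold all of the gene's count. The Plat row held 76.4% and 97.3% of the gene count in transgenic corneas 1 and 2 and 85.8%, 90.0% and 78.4% in the wild-type ones. The Plau row held 29.0% and 75.1% in transgenic corneas and 45.0%, 28.5% and 33.4% in wild-type corneas. Transgenic cornea 2 was the highest library for both shares. The Serpinf1 row held between 80.9% and 84.5% in every library. Estimated counts divide shared reads between isoforms, so these shares are less certain than gene counts, and the gene rows are the measure used above.

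Within-library ratios set 1 member against another, and they do not depend on how libraries are scaled apart from the pseudocount of 0.5 CPM. The log2 ratio of Serpine2 to Plat was -0.70 and 0.24 in transgenic corneas 1 and 2 and -1.14, -1.83 and -1.49 in the 3 wild-type ones. The transgenic ratios exceeded every wild-type ratio, which follows from Serpine2 being higher and Plat lower in both transgenic libraries. Transgenic cornea 2 was the only library with a ratio above 0. Counts are not scaled for length, so a ratio of 0 does not mark equal levels. The means differed by 1.26 on the log2 scale, a ratio 2.39-fold higher in transgenic corneas, and by 0.79 without transgenic cornea 2. The two-sided exact permutation test, with the smaller tail doubled, gave p = 0.2, and 0.3 after adjustment over 6 ratios. With that doubling, 0.2 is the smallest p that 10 arrangements of 2 against 3 libraries give. That p was fixed by the levels of the genes given above and is no further result.

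The log2 ratio of Serpine2 to Plau was 1.17 and 1.92 in transgenic corneas and 0.64, 0.30 and 0.81 in wild-type corneas. Here too the transgenic libraries lay above all wild-type ones (difference 0.96, exact permutation p = 0.2, adjusted 0.3, and 0.59 without transgenic cornea 2). Plau to Plaur, enzyme to receptor, kept to a narrow range but was also higher in both transgenic libraries. It was 2.34 and 2.36 in transgenic corneas and 2.32, 2.07 and 2.33 in wild-type corneas (difference 0.11, exact permutation p = 0.2, adjusted 0.3, and 0.027 without wild-type cornea 2). That separation was slight: transgenic cornea 1 stood at 2.345 and wild-type cornea 3 at 2.331, with 115 and 87 Plaur counts. Plat to Plau overlapped between genotypes, with 1.87 and 1.68 in transgenic and 1.78, 2.13 and 2.30 in wild-type corneas (difference -0.29, exact permutation p = 0.4, adjusted 0.48, and -0.18 without wild-type cornea 3). Serpinf1 to Serpine2 was -0.24 and -0.69 in transgenic and -0.07, 0.64 and 0.06 in wild-type corneas, lower in both transgenic libraries (difference -0.68, exact permutation p = 0.2, adjusted 0.3, and -0.45 without transgenic cornea 2). The ratio of Serpinb2 to Plau is set by the pseudocount at these Serpinb2 counts and differed by 0.05 (exact permutation p = 0.8, adjusted 0.8).

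**Figure D2:**
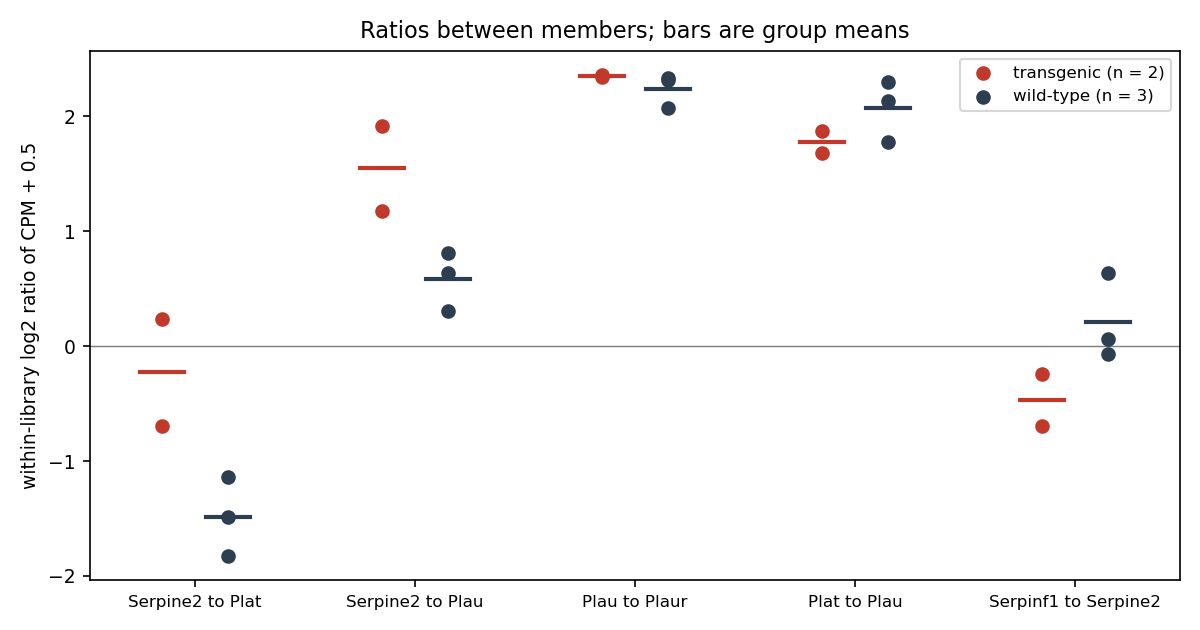
Log2 ratio of CPM + 0.5 between pairs of members (vertical axis) in each transgenic (left of each pair) and wild-type library (right); horizontal bars are group means. Serpine2 to Plat, Serpine2 to Plau and Plau to Plaur lie higher in both transgenic libraries, and Plau to Plaur spans 2.07 to 2.36. For Plau to Plaur the separation is slight, with transgenic cornea 1 at 2.345 and wild-type cornea 3 at 2.331.

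The wider system was listed by role as 68 genes, the 6 members included, with 64 in the table and 47 tested. By edgeR over all genes 0 rose and 0 fell, where 0.00752% of all genes were called, and DESeq2 and limma voom also called 0 of the list. In this list 11 of 47 had an unadjusted p under 0.05, against 6.32% of all genes, in 13 of 47 both transgenic libraries exceeded every wild-type one, against 12%, and in 2 of 47 both lay below every one, against 10.7%. Without the members, 9 of 42 had an unadjusted p under 0.05. The list was chosen with earlier results of these data known, so these counts, and those by role below, describe it and do not test it. Without wild-type cornea 2 the count over the list was 7 of 45, against 566 of 13223 genes. The median log2 fold change was -0.01 in the list and -0.01 over all genes tested. Plasminogen itself (Plg) had 0 counts in all 5 libraries, which allows up to 0.0955 to 0.147 CPM per library, and the fibrinogen genes Fga and Fgb were also at 0.

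All 5 tested activators and related proteases had log2 fold changes below 0, with a median of -0.11, against 6898 of 13304 genes below 0. Plau was above 0 without wild-type cornea 1, and Tmprss2 (-0.03 ± 0.16) and Hpn (-0.06 ± 0.46) were near 0. After Plat, the smallest p in that group was that of St14 (matriptase, a membrane protease of epithelia), with 191.9 and 154 CPM in transgenic and 199.7, 205 and 185 CPM in wild-type corneas (log2 fold change -0.18 ± 0.11, edgeR adjusted p = 0.853). The groups overlapped.

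Of 16 tested receptors and binding proteins, 9 had log2 fold changes above 0 and 7 below, with a median of 0.06. In 7 of 16 both transgenic libraries exceeded every wild-type one, against 12% of all genes, and in 0 of 16 both lay below, against 10.7%. Lrp1, the endocytic receptor that clears complexes of activators with serpins, had 285 and 329 CPM in transgenic corneas, against 221, 212 and 260.2 CPM in wild-type corneas (log2 fold change 0.41 ± 0.12, edgeR adjusted p = 0.531). Both transgenic values lay above the wild-type ones. Tnfrsf11b, the decoy receptor osteoprotegerin and not a plasminogen receptor, had 6.75 and 8.18 CPM in transgenic and 3.25, 3.67 and 4.92 CPM in wild-type corneas (0.92 ± 0.24, edgeR adjusted p = 0.492). By contrast Anxa2, which forms with S100a10 a cell-surface platform for tPA and plasminogen, had 3491 and 3353 CPM in transgenic and 3538, 3736 and 3398 CPM in wild-type corneas, and the groups overlapped (-0.06 ± 0.11, edgeR adjusted p = 0.952).

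Of 12 tested inhibitors, 6 had log2 fold changes above 0 and 6 below, with a median of -0.0057. In 3 of 12, Serpine2 among them, both transgenic libraries exceeded every wild-type one, against 12% of all genes. Beside Serpine2, the smallest p was that of A2m (alpha-2-macroglobulin, a broad protease trap), with 659 and 610.1 CPM in transgenic and 486, 541 and 554 CPM in wild-type corneas (log2 fold change 0.27 ± 0.10, edgeR adjusted p = 0.741). Serpini1, neuroserpin, which inhibits tPA in the nervous system, had 94.7 and 118.8 CPM in transgenic and 110.2, 98.4 and 107 CPM in wild-type corneas. Transgenic libraries were the highest and the lowest for this gene (0.02 ± 0.11, edgeR adjusted p = 0.985).

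Among other serpins, 3 of 7 tested genes had log2 fold changes above 0 and 4 below. The smallest p was that of Serpinh1 (HSP47, the collagen chaperone), with 81.6 and 93.5 CPM in transgenic and 66.3, 70.3 and 72.9 CPM in wild-type corneas (log2 fold change 0.33 ± 0.10, edgeR adjusted p = 0.543). Among 7 tested substrates, 5 were above 0 and 2 below. Mmp9, a gelatinase whose precursor plasmin can help activate, had 0.231 and 0.191 CPM in transgenic and 1.95, 0.881 and 0.182 CPM in wild-type corneas. These were 6 and 6 counts in transgenic and 54, 18 and 4 counts in wild-type corneas. The gene passed the low-count filter through wild-type corneas 1 and 2 alone. Its direction was thus favoured by the filter, and its fitted fold change is not quoted. That fit still enters the counts and the median of the list. Mmp9 is 1 of the 2 substrates below 0 and 1 of the 11 of 47 above. It is also drawn in the plot of fold changes of the list. Fn1, fibronectin, which plasmin cleaves, had a log2 fold change of 0.40 ± 0.11 (edgeR adjusted p = 0.492).

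**Figure D3:**
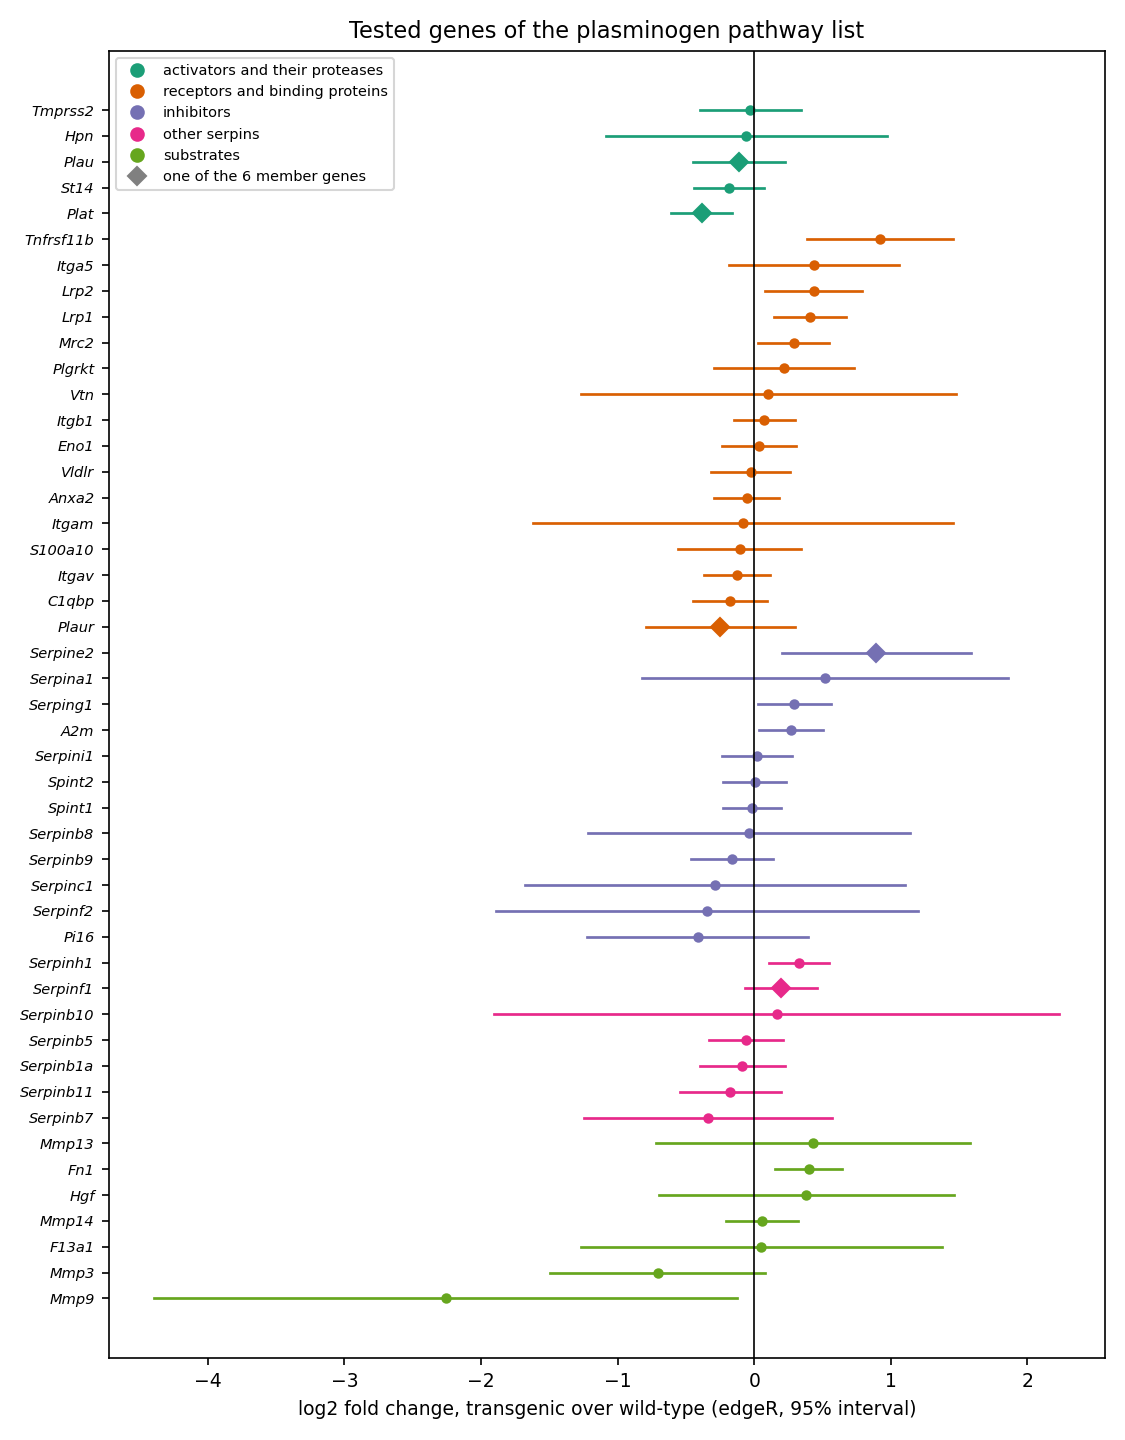
Log2 fold change, transgenic over wild-type, with its 95% interval for the 47 tested genes of the pathway list (rows), coloured by role; diamonds are members. The 5 activators and related proteases lie at or left of 0, and no gene of the list passes over all genes tested.

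Profiles over the 5 libraries were compared by the root mean square distance of log2(CPM + 0.5), centred on each gene's mean. Candidate neighbours were named genes averaging 5 CPM or more, a level that Plaur itself did not reach. Nearest to Serpine2 were Mrvi1 (0.07), Islr (0.07) and Myoc (0.08), the last encoding myocilin, a secreted protein of trabecular meshwork and stroma. They were chosen for this likeness, so they share its order of groups. Means in transgenic against wild-type corneas were 9.12 and 4.87 CPM for Mrvi1, 12.6 and 7.05 CPM for Islr, and 381 and 194 CPM for Myoc. Nearest to Plat were Cks1b (0.02), C1ql3 (0.05) and Haspin (0.05). Among members, Plau and Plaur were nearest to each other (0.11), and Serpine2 and Plat farthest apart (0.72).

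The genes nearest to Plau were Osbpl11, Sec22a and Wdr53, those nearest to Plaur were Chmp2b, Ap1s3 and Mrpl33, and those nearest to Serpinf1 were Dgkd, Kif3a and Akt1s1, all at distances between 0.02 and 0.04. With 5 libraries and 9602 or 9603 candidate genes, these neighbours are given as a description.

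**Figure D4:**
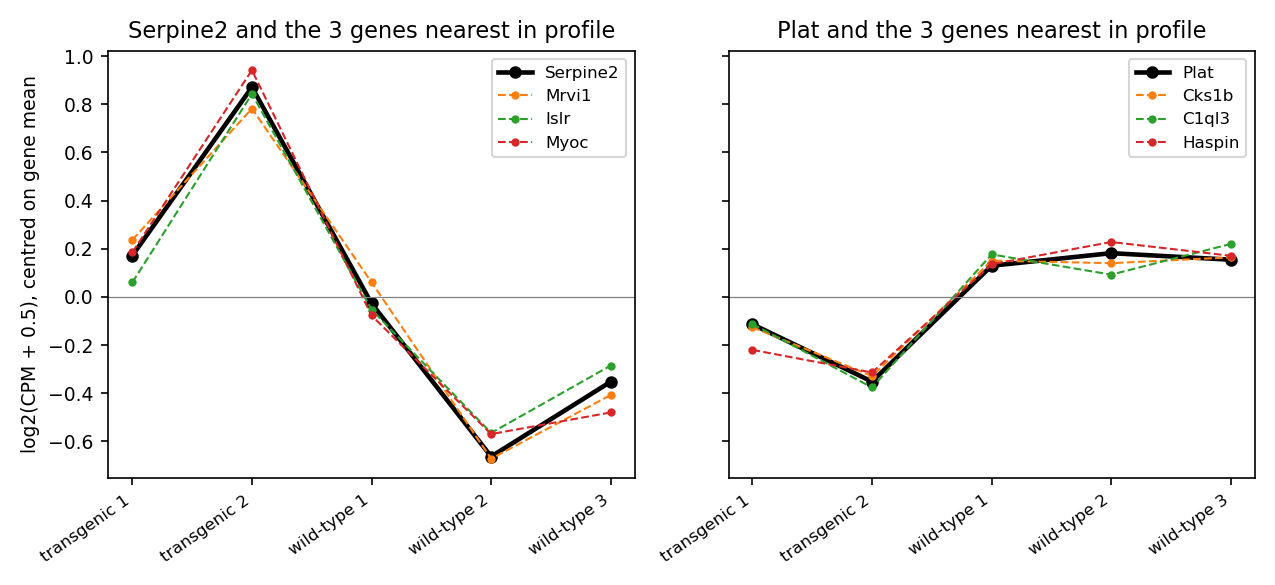
Profiles over the 5 libraries (horizontal axis) of Serpine2 (left) and Plat (right) as solid lines and of the 3 genes nearest to each as dashed lines; the vertical axis is log2(CPM + 0.5) centred on each gene's mean. Serpine2 and its neighbours peak in transgenic cornea 2 and are lowest in wild-type cornea 2. Plat and its neighbours are level over the wild-type libraries. All neighbours were chosen for this likeness.

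Stromal markers (10 of 12 genes in the table, none at 0) summed to 3037 and 3243 CPM in transgenic and 2554, 2676 and 2481 CPM in wild-type corneas, with 8 of 10 genes higher. Per 1000 CPM of these markers, a scaling chosen after seeing the data, Serpine2 had 18.5 and 28.2 CPM in transgenic and 19.1, 11.7 and 15.7 CPM in wild-type corneas, so the groups overlapped. Plat had 30.0 and 23.8 CPM on the same scale in transgenic and 42.3, 41.9 and 44.3 CPM in wild-type corneas, lower in both transgenic libraries. Plau had 8.09 and 7.34 in transgenic and 12.2, 9.42 and 8.84 in wild-type corneas on that scale, and the groups no longer overlapped. Plaur likewise had 1.46 and 1.31 in transgenic and 2.29, 2.10 and 1.596 in wild-type corneas, with no overlap. The divisor was itself higher in both transgenic libraries, so this scale lowers every gene there relative to wild-type. Plau had a log2 fold change of -0.38 on this scale and -0.11 by edgeR without it, and Plaur -0.52 and -0.25. How many of all genes separate on this scale was not counted.

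Per 1000 CPM of epithelial markers (9 of 10 genes in the table, none at 0), which summed to 121260 and 95923 CPM in transgenic and 103832, 117207 and 109683 CPM in wild-type corneas, Plat had 0.752 and 0.806 CPM in transgenic and 1.04, 0.956 and 1.00 CPM in wild-type corneas. It was lower in both transgenic libraries on all 3 scales, and Serpine2, with 0.462 and 0.952 in transgenic and 0.470, 0.266 and 0.354 in wild-type corneas, overlapped on this one.

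**Figure D5:**
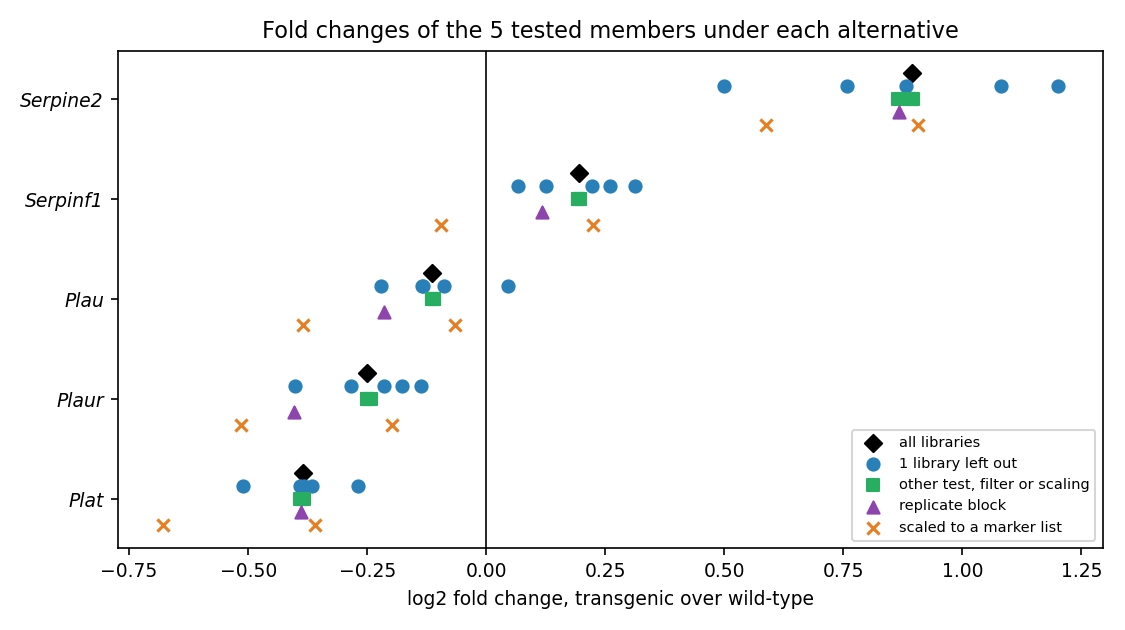
Log2 fold change, transgenic over wild-type (horizontal axis), of the 5 tested members (rows) with all libraries (diamonds) and under each alternative (other marks). Serpine2 runs from 0.50 to 1.20 and Plat from -0.68 to -0.27, while Plau and Serpinf1 each cross 0 under 1 alternative.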

How the data were processed

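RNA sequencing of 5 corneas was analysed from 2 tables. The authors deposited expected counts (estimated counts, not normalized) per gene and per isoform. Tools named in the submitters' processing notes, without role or order, are STAR 2.5.3a, RSEM 1.2.28, edgeR 3.28.0, DESeq2 1.26.0, fastp and FastQC, with build rn6. Estimated counts divide reads shared between transcripts. Strandedness was not stated, so antisense reads cannot be told apart.

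Counts were rounded, filtered by filterByExpr (minimum count 10), normalized by TMM and tested over the whole table with the two-sided quasi-likelihood F test of edgeR 4.0.16 (robust) in R 4.3.3, with Benjamini-Hochberg adjustment and a threshold of 0.05. The SE is the absolute log2 fold change divided by the square root of F, and 95% intervals use the fit's degrees of freedom. Means are ± SD. DESeq2 1.42.0 and limma 3.58.1 voom were alternatives, with size-factor scaling, no filter, a replicate block and each library left out. The procedure was tested on simulated data. Ratios were tested by exact permutation over libraries, with the smaller tail doubled. Floors are 3 counts per library. Promoter motifs were searched in Python 3.11.15.

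The members and lists were chosen with earlier results of these data known. Of the pathway list, the 2 tested genes of smallest p in each role were named; Anxa2 and Serpini1 were added after their values were seen. An item that was on the list is not reported here and is in none of the list's counts. All 6 member symbols, and 67 of 68 of the list, matched RefSeq (GRCr8).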

Additional observations from a re-analysis of the deposited data

How the results depend on the processing

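No member was called under any of 10 alternatives, and of 60 alternative fold changes of members 58 kept their direction. Of the 60, 10 were the scalings to stromal and epithelial markers, which were chosen after seeing the data and have no test. Leaving out 1 library moved the log2 fold change of Serpine2 between 0.50 and 1.20, of Plat between -0.51 and -0.27, and of Plau between -0.22 and 0.045; the named Plau isoform moved between -0.41 and 0.92, the Plaur isoform ENSRNOT00000074985 between -0.36 and 0.72, and the ratio of Serpinb2 to Plau between -0.051 and 0.17. Scaled to stromal markers, Serpinf1 had -0.095 in place of 0.20. Over all genes, edgeR called 1 (841 at an unadjusted p under 0.05), 2 with no low-count filter, 16 with the replicate block, between 2 and 36 with 1 library left out, and DESeq2 53; for isoforms, DESeq2 called 209 and edgeR 0. With the replicate block, the Plaur isoform had -0.0079. Replicate numbers are shared by 2 pairs of libraries only, whose deviations from the group means correlated at 0.0006 and -0.11 across genes. The block thus rests on numbers that do not show a pairing. It changed no call of a member. It left 1 of 5 members and 7 of 47 genes of the list at an unadjusted edgeR p under 0.05, against 1370 of 13304 genes. Where 1 transgenic library was left out, the lone one was assumed to vary like the wild-type ones. The causes of these shifts were not tested. Depth limits Serpinb2 most, and Plaur next.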

Other observations

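Serpinb10, a serpin of the same subfamily as Serpinb2, differed between the transgenic libraries, with 3.78 and 19.5 CPM in transgenic corneas 1 and 2, against 12.96, 8.47 and 9.88 CPM in wild-type corneas 1 to 3 (log2 fold change 0.17 ± 0.75, edgeR adjusted p = 0.981). Serpinb5 (maspin), an epithelial serpin that does not act as a protease inhibitor, had 577 and 681 CPM in transgenic and 692, 687 and 586 CPM in wild-type corneas, overlapping between genotypes (-0.06 ± 0.12, edgeR adjusted p = 0.957). The paired Kunitz inhibitors of matriptase, Spint1 and Spint2, had log2 fold changes of -0.01 ± 0.10 and 0.0034 ± 0.10 (edgeR adjusted p = 0.986 and 0.997). These genes were chosen after their values were seen.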
